A study of Caenorhabditis elegans with 2 samples.

Results

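The regions described here are autosomal intronic regions of a map of NHR-77 on the *Caenorhabditis elegans* genome. They are entries of a relaxed list of 30000 regions that the authors called on 2 pooled chromatin immunoprecipitation sequencing (ChIP-seq) replicates. A region was taken when its summit lay on an autosome, inside the body of a protein-coding gene, in no coding or untranslated exon, and more than 500 bp from every protein-coding gene's 5′ end and from any transfer, small nuclear, small nucleolar, ribosomal or micro RNA gene. The rule used positions only, not signal, and found 7617 regions, 25.4% of the pooled list and 30.9% of its 24663 autosomal entries. Of these, 22 were among the 415 regions that passed the authors' threshold on the irreproducible discovery rate.

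The material was whole L2 larvae of strain OP353, of both sexes, in 2 biological replicates of a single group. Both replicates carried the unc-119(tm4063) mutation on chromosome III and the transgene wgIs353, which supplies NHR-77 fused to eGFP, so no wild-type worms stand beside them. The labels list the antibody as nhr-77 and the assay as directed at the eGFP fusion, and the cells of the worm that make the fusion are not named. A control file is named in the deposited text files but was not used here, and with 1 group the comparisons are between kinds of region and between the replicates.

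Nuclear hormone receptors are transcription factors with a zinc finger domain that classically binds short hexamers such as AGGTCA, singly or in pairs, and the family is greatly expanded in nematodes. Most introns of this worm are short. Its long introns are known to hold enhancers, alternative promoters and non-coding RNA genes, so a factor can act on a gene from within it, or on another gene from there.

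The 30 reference bases centred on a summit are printed for the 12 regions of highest signal on chromosomes II to V, in RefSeq's WBcel235 sequence, the assembly of build ce11, on the plus strand, 5′ to 3′. They show what lies at the point of greatest signal, and capitals mark the letters GAGAGA or their reverse complement TCTCTC, a repeat that recurs in the results.
pqn-41, III:1925321-1925350: gtgtgtgccaccgggcttcacacacacaca
daf-5, II:14040416-14040445: ttgctgtgctagcaaagaatgtttctgcag
zfp-1, III:8802143-8802172: ttggagaatcagacgacgataaggaatgag
Y111B2A.12, III:12612602-12612631: cgtcgtgttctctggcgtctccacaatctg
nurf-1, II:14405378-14405407: gacggcgtagaaacGAGAGAGAcgcggaaa
zfp-1, III:8795879-8795908: acagcctgaagaggtgttagagaaatagag
W06H8.6, V:6224644-6224673: gcaaaggccaccacagacctcctgccaacg
scc-2, II:255328-255357: cacgctccatcgagcggccgccctttcggc
spop-1, III:10096680-10096709: tcccgtctcacccagtgttgaaggccgccc
pkg-2, IV:8527659-8527688: aacttgttcctctatttttgttccattatc
vhp-1, II:5330315-5330344: tccctcacTCTCTCtgtctctatgtgtctc
epg-9, IV:2602154-2602183: ctcaccagtgtctctttgcctgtctgcgtc

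In some of these and other regions the repeat lay beside the summit, and 30 bases around its match nearest the summit are shown for them. They were chosen after the values were seen. Of the 9 patterns searched, this repeat differed most in share between thresholded intronic regions (63.6%) and intronic regions below the threshold (10.4%). Thresholded intergenic regions held it in 69.2%, so it is not particular to introns.
daf-5, II:14040388-14040417: cttcagagTCTCTCTCTCgttttccatgtt
zfp-1, III:8802169-8802198: tgaggatatgaaGAGAGAaagacagttaga
spop-1, III:10096658-10096687: ctcttttgtgtgTCTCTCtttctcccgtct
W06H8.6, V:6224694-6224723: gaattagaagagGAGAGAGAatagagaaac
epg-9, IV:2602190-2602219: gtagtcatatgaTCTCTCatcacgggggga
myrf-1, II:10501654-10501683: tgattgtgggtcGAGAGAaaaaagaaacac

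The first question was how strongly introns were marked. Few intronic regions reached the top of the list: 22 of 7617 passed the threshold, or 0.289% (exact 95% Clopper-Pearson interval 0.181 to 0.437), against 1.38% of all pooled regions. The share was 1.78% among the other 17046 autosomal regions (interval 1.59 to 1.99). Among autosomal classes it was 3.47% within 500 bp of a gene start (197 of 5685), 0.828% in intergenic sequence as far from starts and short RNA genes (52 of 6281, interval 0.619 to 1.08), and 0% in coding exons (0 of 3517, upper limit 0.105). Introns of X chosen by the same rule had 10 of 1460, or 0.685% (interval 0.329 to 1.26), an interval that overlaps that of the autosomal introns. Intervals here cover counting error only, regions are not replicates of animals, and 2 replicates of 1 group allow no test of these differences.

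Below the top, introns looked like the rest of the list. The pooled signal, a score of the peak caller, had a median of 7.82 over the intronic regions (quartiles 6.62 and 9.74) and 7.98 over all pooled regions (quartiles 6.69 and 10.2). The medians of the intergenic and coding exon classes were 7.94 and 7.62. The difference lay in the upper tail, where 475 intronic regions (6.24%) were among the 3000 highest of the list, against 10% of all, and 86 (1.13%) among the 1000 highest, against 3.33%. The highest intronic region stood at rank 57 of the pooled list, with a signal of 63.4, while the highest pooled region had 244.8.

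**Figure D1:**
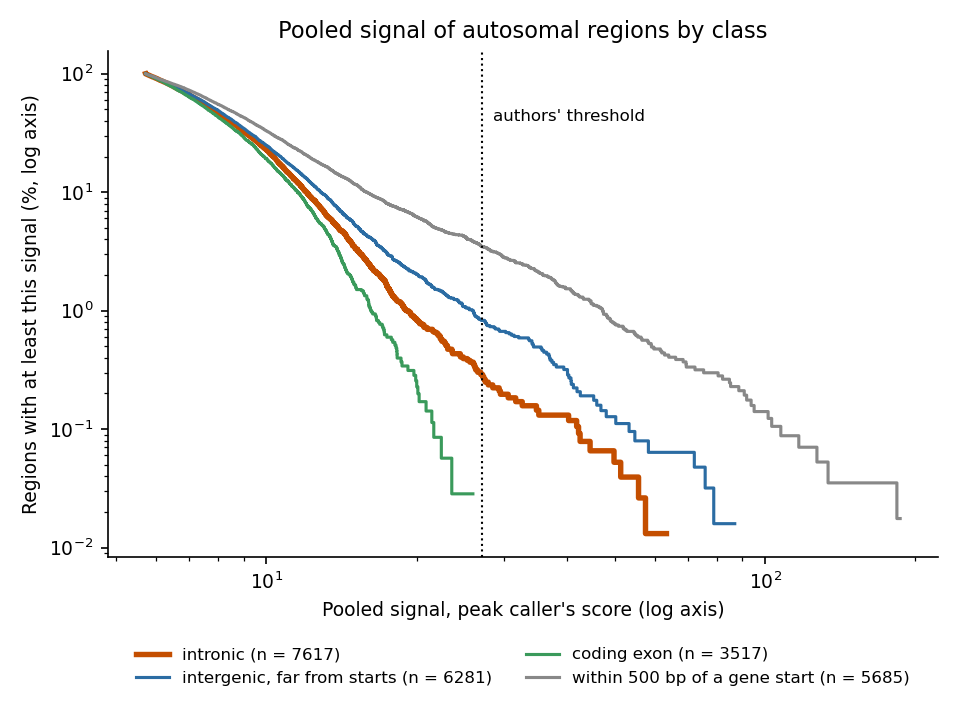
Share of autosomal regions (vertical axis, %, log scale) with at least the pooled signal on the horizontal axis (peak caller's score, log scale), for intronic, intergenic, coding exon and gene start regions; the dotted line is the authors' threshold. The curves start together, since all classes share the lower limit of the list. At the threshold the intronic curve stands at 0.289%, between coding exons at 0 and intergenic sequence at 0.828%, with gene starts at 3.47%.

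The label held for the summits but less for whole regions. Each pooled entry of this class spanned 330 bp, and 4507 of the 7617 (59.2%) lay within introns over their whole length, while the others ran into an exon. The summit of 287 fell outside the introns of the transcript with the longest coding sequence, the one used here to number introns, because they are intronic only by other transcripts or lie beyond it. A transcript's own 5′ end, as opposed to the gene's, lay within 500 bp of 755 summits (9.91%). These are thus near a transcript start, of the host or another gene, that is not the 5′ end of a gene. At the edge of the distance rule, the 273 regions just inside it, at 501 to 600 bp from a gene start, had a median signal of 7.68 and 0 past the threshold, and the 282 gene body regions just outside it, at 401 to 500 bp, had 7.85 and 2.

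pqn-41 held the strongest intronic signal and the only cluster of 3 thresholded regions. The gene encodes a protein rich in glutamine and asparagine that is needed for the death of the male linker cell. Its highest region, III:1925171-1925500, had a pooled signal of 63.4, with 18.97 in replicate 1 and 41.7 in replicate 2, which are ranks 62 and 68 among the nuclear regions of those lists. The neighbours at III:1926479-1926808 and III:1923509-1923838 had pooled signals of 31.6 and 29.5, ranks of 493 and 389 in replicate 1, and ranks of 323 and 523 in replicate 2. Pairs of ranks in what follows are those of replicate 1 and then of replicate 2. All lay in intron 14 of 22, the gene's longest at 10372 bp, with summits 1308 and 1662 bp apart, the first of them 17716 bp from the gene's 5′ end. The nearest transcript 5′ ends were 2335, 1027 and 3997 bp from the summits, in the order in which the regions are named. The other 10 intronic regions of pqn-41 were below the threshold, and the summit of the highest sits between a GT run and a CA run, shown above.

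daf-5 and zfp-1 held 2 thresholded regions each. daf-5 encodes a Sno/Ski family protein of the TGF-β pathway that controls dauer entry. Its first intron, 14446 bp of a gene of 19089 bp, held a region at II:14040266-14040595 with a pooled signal of 57.5 (rank 227 in replicate 1 and 58 in replicate 2) and one at II:14050616-14050945 with 27.1 (ranks 6168 and 278). The replicates thus placed the first high in both lists and the second high in replicate 2 alone. zfp-1 encodes the worm counterpart of AF10, a chromatin protein with PHD fingers. Its regions at III:8801993-8802322 and III:8795729-8796058 had pooled signals of 55.7 and 42.5 and lay in introns 9 and 4 of 13, at 10623 and 4359 bp from the gene's own 5′ end. The nearest 5′ end of any gene was 1457 and 3543 bp away, and that of any transcript 661 and 1485 bp. The ranks of these 2 regions were 111 and 115 in replicate 1, and 81 and 164 in replicate 2, so both stood high in both.

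**Figure D2:**
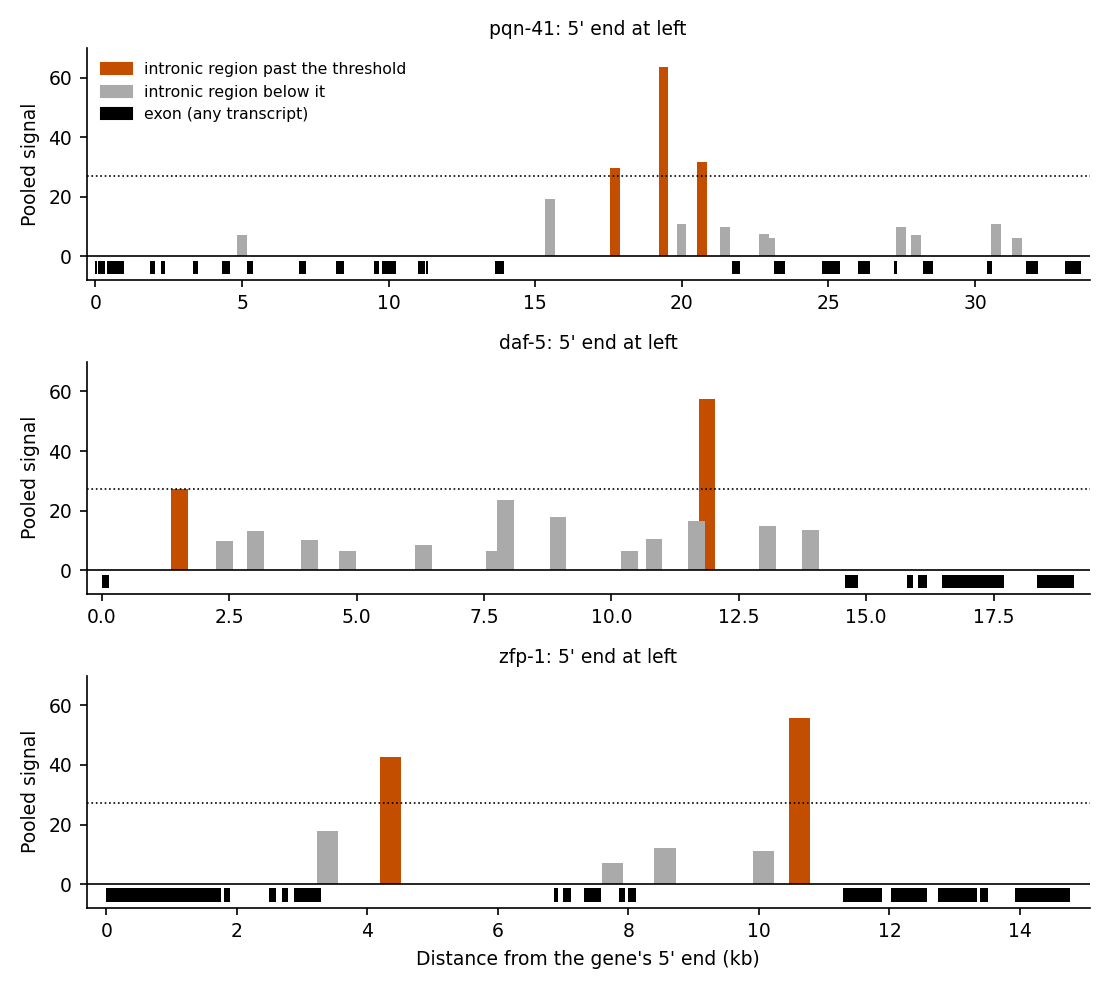
Pooled signal (vertical axis, peak caller's score) of every intronic region of pqn-41, daf-5 and zfp-1 against distance from the gene's 5′ end (horizontal axis, kb); orange bars passed the threshold (dotted line), grey bars did not, and black boxes are exons of any transcript. The 3 regions of pqn-41 stand together in its longest intron, those of daf-5 far apart in its first intron, and those of zfp-1 in separate introns.

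The remaining hosts with a known role in transcription, chromatin or RNA processing were nurf-1, scc-2, myrf-1 and ints-8. nurf-1 encodes the large subunit of the NURF chromatin remodelling complex, and its region at II:14405228-14405557, in intron 20 of 24, had a pooled signal of 49.8 and ranks of 231 in replicate 1 and 122 in replicate 2. That summit was 39 bp from the 5′ end of a protein-coding transcript, whose gene was not looked up. scc-2 encodes the cohesin loader, and its region at II:255178-255507 in the first intron had 41.9 and ranks of 75 and 222, with a transcript 5′ end 147 bp away. myrf-1, which encodes a membrane-bound transcription factor that promotes larval development, had 27.3 at II:10501513-10501842, at rank 350 in replicate 2. Replicate 1 had no summit within 100 bp there, and the region that overlapped it ranked 4254.

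The ints-8 region overlapped another gene. ints-8 encodes a subunit of the Integrator complex, and the region at I:13463725-13464054 in its intron 5 had a pooled signal of 28.4, with rank 5752 in replicate 1 and 271 in replicate 2. It overlapped rpr-1, the gene for the RNA of ribonuclease P, a class of RNA that the rule on short RNA genes does not name. Among the other thresholded regions, that of W06H8.6 overlapped the non-coding RNA gene W06H8.16, and that of vhp-1 overlapped the antisense RNA gene anr-54, in which its summit lay. The share of summits inside another annotated gene was 4.55% of the thresholded regions (1 of 22) and 1.78% of those below the threshold (135 of 7595). The 3 overlapped genes were named after their values were seen.

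Hosts with roles in signalling were ppfr-1, pkg-2, vhp-1 and mnk-1. ppfr-1, a regulatory subunit gene of protein phosphatase 4, had a pooled signal of 44.6 at I:9381273-9381602, at rank 150 in replicate 2, and no summit within 100 bp in replicate 1, where the overlapping region at a summit distance of 106 bp ranked 431. vhp-1, a MAP kinase phosphatase gene, had 34.8 at II:5330165-5330494 and stood high in both replicates, at ranks 213 and 274. mnk-1, the gene of a kinase that acts below MAP kinases, had 29.3 at II:10551855-10552184, rank 547 in replicate 2 and an overlapping region at rank 6026 in replicate 1.

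pkg-2, which encodes a cGMP-dependent protein kinase, was the exception among them. Its region at IV:8527509-8527838 had a pooled signal of 35.2 and the highest rank of any intronic region in replicate 1, 53, yet rank 7915 in replicate 2. The GC content of its window was 35.5%, the lowest of the 22, and it held 1 CpG.

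Hosts in protein turnover and membrane traffic were spop-1, epg-9 and vps-25. spop-1, named for the human ubiquitin ligase adaptor SPOP, had a pooled signal of 40.3 at III:10096530-10096859, with rank 1065 in replicate 1 and 104 in replicate 2. epg-9, an autophagy gene related to ATG101, had 32.6 at IV:2602004-2602333, rank 212 in replicate 2, and an overlapping region at rank 511 in replicate 1. vps-25, an ESCRT-II subunit gene, had 27.5 at I:12736639-12736968, with ranks of 871 and 629 and a transcript 5′ end 22 bp from the summit. The hosts left, with no role given here, were Y111B2A.12 at 51.3 (III:12612452-12612781, ranks 106 and 100), W06H8.6 at 42.2 (V:6224494-6224823, ranks 162 and 229), K11D2.4 at 30.5 (I:12524303-12524632, no overlapping region in replicate 1 and rank 136 in replicate 2) and C33B4.4 at 27.8 (II:11376753-11377082, ranks 2078 and 367).

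The replicates were compared to see how far each carried these regions. The regions were chosen on both replicates pooled, so the counts below are not an independent check of them. Within 100 bp of the pooled summit, replicate 2 had a region for 22 of the 22 thresholded intronic regions and replicate 1 for 17 (77.3%), and counting any overlap replicate 1 had one for 21. For the other autosomal regions past the threshold the figures were 302 (99.3%) and 281 of 304 (92.4%). Both replicates placed 9 of the 22 (40.9%) among their own 415 highest nuclear regions, replicate 2 alone 9, replicate 1 alone 2 and neither 2, and the share in both was 42.1% (128 of 304) for the other autosomal regions past the threshold.

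Over the class as a whole, as over the whole pooled list, the replicates had little in common. Of all 7617 intronic regions, replicate 2 had a summit within 100 bp for 58.3%, replicate 1 for 22.4%, both for 8.59% (654) and neither for 27.8%. Over all 30000 pooled regions these shares were 60.2, 24.8, 10.9 and 25.9% in the same order. Wider matching found more intronic regions in both, 1170 with summits within 200 bp and 1464 by overlap. Over the 654 found in both, the signals of the replicates had a Spearman's rho of 0.228, given as a description across regions that share libraries and base composition. The rho was 0.388 over the 3278 of all pooled regions found in both, 0.494 at gene starts (879), 0.322 in intergenic sequence (638) and -0.0158 in coding exons (243). For the 537 intronic regions outside the 2000 highest it was 0.0498. Since the pooled list was built from both replicates, choosing regions by pooled rank itself moves rho.

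**Figure D3:**
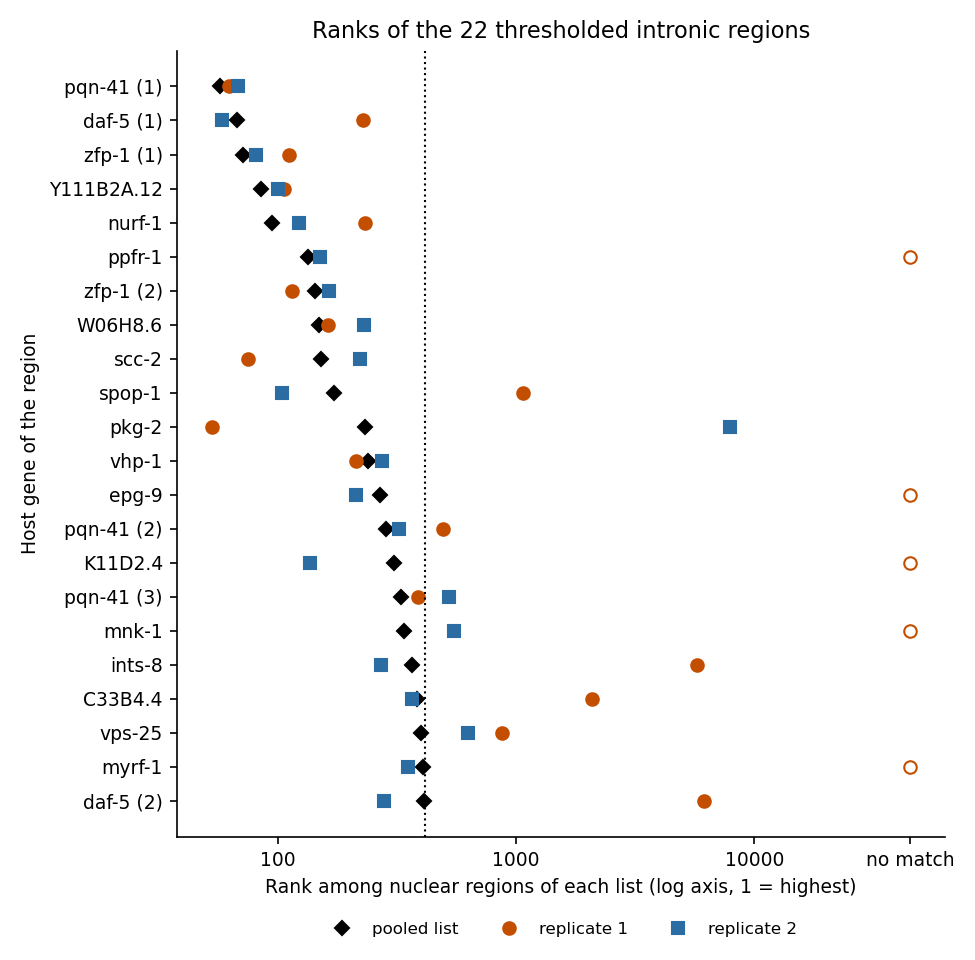
Rank (horizontal axis, log scale, 1 is highest) of the 22 thresholded intronic regions, named by host gene from the highest pooled signal down, in the pooled list (diamonds), replicate 1 (circles) and replicate 2 (squares); the dotted line is rank 415, and open circles have no replicate 1 summit within 100 bp. Most of the upper rows have both replicates left of the line, in many lower rows replicate 1 lies to its right or has no match, and in the pkg-2 row replicate 2 lies far to the right.

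Applied to each replicate's own list, the rule gave different sets of high intronic regions. Replicate 1 had 5436 intronic regions among 23233 nuclear ones, of which 41 were among its 415 highest, 0.754% (interval 0.542 to 1.02) against 1.79% of all. Replicate 2 had 7381 among 30000, of which 22 were among its 415 highest, 0.298% (interval 0.187 to 0.451) against 1.38% of all. Introns were thus below the share of the whole list in each replicate, and further below in replicate 2. Of the 41 in replicate 1, 11 lay within 100 bp of a thresholded intronic region and 9 within 100 bp of one of the 22 in replicate 2, while 18 of those 22 in replicate 2 lay by a thresholded one. The whole list differed too. Of all 30000 pooled regions, 181 matched the 415 highest of both replicates, 196 those of replicate 1 only and 232 those of replicate 2 only. For pooled intronic regions these counts were 9, 26 and 13. The high regions also differed in composition, with a GC content of 39.2% ± 10.5 (SD, n = 41 regions) in replicate 1 and 49.5% ± 6.92 (SD, n = 22 regions) in replicate 2, and GAGAGA in 36.6% of the windows in replicate 1 and 77.3% in replicate 2.

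Thresholded intronic regions were rich in GC and, beside all those below the threshold, poor in soft-masked sequence. In windows of 200 bp on the summits, GC content was 49% ± 6.63 (SD, n = 22 regions), between 35.5 and 61%, against 32.6% ± 7.38 (SD, n = 7595) below the threshold. All intronic sequence that the rule admits, 24.0 Mb, had 32.1% GC, so the intronic regions as a whole had the composition of introns. Soft-masked bases took up 18.6% ± 16.6 of the thresholded windows and 50.4% ± 27.7 of those below, against 54.4% of the admitted sequence. The windows held 12.5 CpG on average past the threshold and 5.84 below it. Regions below the threshold with at least 44% GC (n = 551, a limit chosen after the values were seen) had 21.1% ± 21.3 masked and 10.7 CpG. At like GC, masking and CpG were thus near those of the thresholded regions. The 2 thresholded regions under 40% GC were those of pkg-2 and mnk-1, which ranked 7915 in replicate 2 and, by overlap, 6026 in replicate 1.

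The share past the threshold went up with GC in the intronic, intergenic and gene start classes alike. It was 0 of 2795 intronic regions under 30% GC (upper limit 0.132%), 2 of 3570 (0.056%) from 30 to 40%, 10 of 1112 (0.899%) from 40 to 50%, and 10 of 140 (7.14%, interval 3.48 to 12.7) at 50% or more. Intergenic regions had 0.053, 0.215, 2.31 and 15.6% in the same bins, and gene start regions 0.25, 2.74, 7.3 and 13.2%. The intronic share was the lowest of these classes in each bin, but its interval overlaps that of intergenic regions in all 4 bins (in the top one 9.89 to 22.8), and that of gene starts under 30% GC and in the top bin (8.37 to 19.5). Coding exons had no region past the threshold in any bin, also not among 168 at 50% GC or more (upper limit 2.17%). The part of GC content in these shares was not tested.

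**Figure D4:**
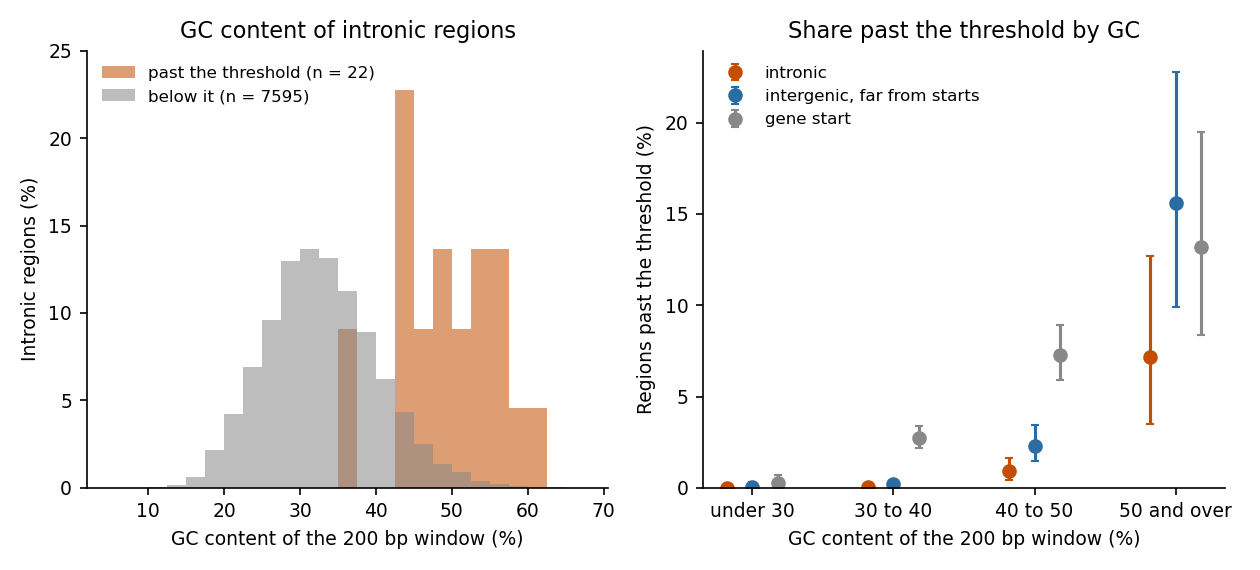
Left, GC content of 200 bp windows (horizontal axis, %) for intronic regions past the threshold (orange) and below it (grey), as a percentage of each group; right, percentage of regions past the threshold by GC bin for intronic, intergenic and gene start regions, with exact 95% intervals. The thresholded regions centre on 49% and the others on 32.6%, and in each bin the intronic point is the lowest, reaching 7.14% in the top bin.

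Strong regions sat in long introns. The intron that held the summit had a median length of 6328 bp (542 to 14446) for thresholded regions and 996 bp for those below the threshold, and it was the longest of its gene for 18 of 22 (81.8%) and 43.1%. It was the first intron for 8 of 22 (36.4%) and 17.8%. The nearest exon was at a median of 1030 bp and 224 bp. The 22 regions lie in 18 genes, and 1 intron of pqn-41 is counted 3 times and 1 of daf-5 2 times in these figures. Regions below the threshold with at least 44% GC stood nearer to the thresholded ones. Their median intron was 1713 bp, the longest of its gene for 56.8% and the first for 22.5% (n = 511 with a numbered intron). Their nearest exon was at a median of 356 bp. No region in an intron of up to 500 bp passed the threshold (0 of 1806, upper limit 0.204%), whereas 4 of 3475 did (0.115%) at 501 to 2000 bp, 6 of 1085 (0.553%) at 2001 to 5000 bp, and 12 of 964 (1.24%, interval 0.645 to 2.16) in longer introns.

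The order by intron length was the same among regions with a GC content of at least 44%, a limit chosen after the values were seen. The shares were 0 of 114, 3 of 161 (1.86%), 5 of 106 (4.72%) and 9 of 147 (6.12%) in the same bins. The 9 include the 3 regions that share an intron of pqn-41 and the 2 that share an intron of daf-5. Their interval counts regions, not separate introns, and the part of intron length was not tested. The mean GC of these subsets ran from 47.1% in the shortest introns to 48.6% in the longest. The intervals of neighbouring bins overlap, and that of the longest introns (2.84 to 11.3) also overlaps the upper limit of 3.18% of the shortest. The thresholded regions in shorter introns than their gene's longest were those of zfp-1 (intron 9), W06H8.6, K11D2.4 and ints-8, of which W06H8.6 had the shortest intron of all, 542 bp.

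**Figure D5:**
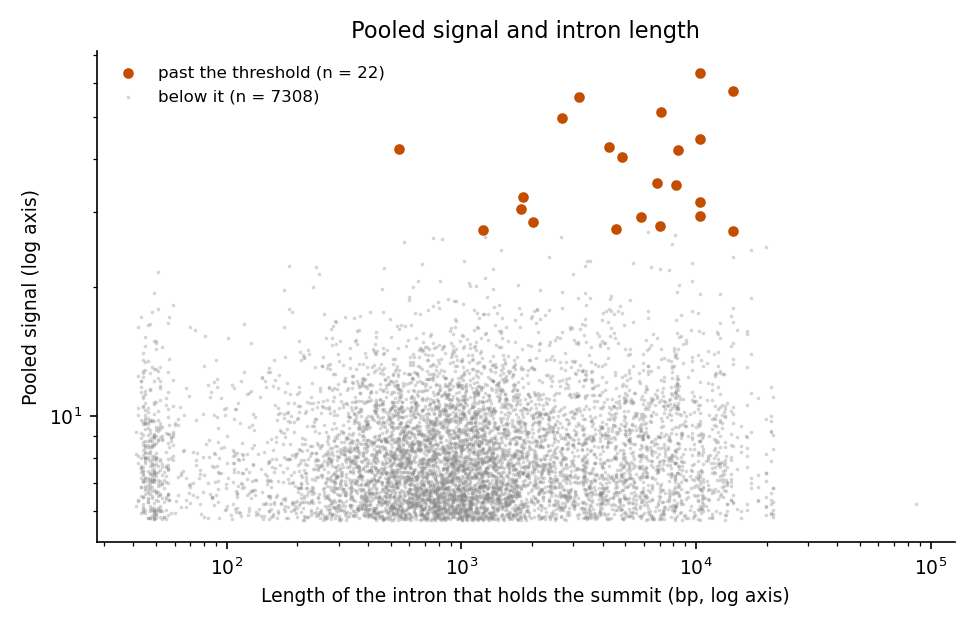
Pooled signal (vertical axis, peak caller's score, log scale) against the length of the intron that holds the summit (horizontal axis, bp, log scale), for regions past the threshold (orange) and below it (grey, 7308 with an intron in the transcript used). All orange points lie at 542 bp or more, and 12 lie above 5000 bp.

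The intronic regions were spread over 3874 host genes, 2361 of them with 1 region. The number per gene went with the length of admitted intron (Spearman's rho = 0.638 over 3874 genes, a description). The genes with most were all long, between 32526 and 49607 bp: gcn-1, a translation control gene, with 21, the phosphodiesterase gene pde-3 with 19, and afd-1 (afadin), crh-1 (CREB) and egl-4, a cGMP-dependent kinase gene, with 17 each. None of their regions passed the threshold, and the highest signals in them were 14.6, 17.3, 11.8, 16.2 and 16.5 in that order. Of all intronic regions only 0.289% passed, a share too low for this absence to set these genes apart. The 18 hosts of thresholded regions had a median of 6 intronic regions in 8.1 kb of admitted intron, against 1 in 2.4 kb for the other 3856 hosts. A gene with more intronic regions has more chances to hold a thresholded one, so this contrast partly follows from how the hosts were chosen. None of the 18 also had a thresholded region within 500 bp of its own 5′ end, which 77 of the other hosts (2%) did. With a share that low, 0 of 18 does not set the thresholded hosts apart.

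By chromosome, II held 8 thresholded intronic regions of 1454 (0.55%), III 7 of 1542 (0.454%), I 4 of 1644 (0.243%), IV 2 of 1541 (0.13%) and V 1 of 1436 (0.0696%). These counts are small and include several regions of 1 gene, 3 of pqn-41 and 2 of zfp-1 on III and 2 of daf-5 on II. The share over all regions of each chromosome is not given here, so whether this spread is particular to introns was not tested. The density of all intronic regions varied less, from 285 per Mb of admitted intron on V to 362 on II. The central 50% of each chromosome's length held 44.6% of the intronic regions and 42.2% of the admitted intron sequence, and 10 of the 22 thresholded regions lay there.

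Of 9 short patterns searched on both strands of the 200 bp windows, GAGAGA differed most in its share. It was in 14 of the 22 thresholded windows (63.6%, interval 40.7 to 82.8), against 10.4% of those below the threshold, 13.1% of all pooled regions, and 32.7% of those below the threshold with at least 44% GC. The intergenic regions past the threshold had it in 69.2% (36 of 52), whereas peaks at gene starts had it in 26.4% (52 of 197). Thresholded introns thus stood close to thresholded intergenic sequence in this respect. Among intronic regions of at least 44% GC, 6.25% of the 192 with the pattern passed the threshold and 1.33% of the 376 without it. The thresholded regions with no match were those of Y111B2A.12, scc-2, pkg-2, mnk-1 and C33B4.4, the strongest and the weakest of pqn-41, and the weaker one of daf-5.

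The hexamer of nuclear receptors had no match in these 200 bp windows of the thresholded regions, and 1 of 22 (4.55%) in windows of 400 bp. AGGTCA was in 0 of 22 thresholded windows (upper limit 15.4%), in 4.42% of those below and in 4.86% of all pooled regions, both of which lie under that upper limit. AAGTCA, a variant of it, was in 1 of 22 (4.55%) and 8.08%. TGTTTGC, a forkhead-like sequence, was in 3 (13.6%, interval 2.91 to 34.9) and 3.46%, and GGGCGG, a GC box, in 4 (18.2%, interval 5.19 to 40.3), 3.61% of those below and 12.7% of those below with at least 44% GC. CANNTG, the E-box, was in 12 (54.5%) and 42.5%, TGATAA in 1 (4.55%) and 16.2%, TTTCGCGC in 1 (4.55%) and 0.829%, and TGACGTCA in 0 and 1.26%. Over all pooled regions these shares were 8.89% for AAGTCA, 3.98% for TGTTTGC, 3.64% for GGGCGG, 51.7% for CANNTG, 18.5% for TGATAA, 0.75% for TTTCGCGC and 1.03% for TGACGTCA. No pattern contains another, though matches may overlap in a window, and a match is a run of letters, not a bound site.

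Intronic regions of the listed genes stood about as high as the rest. Over 12 lists of receptor, factor, channel, muscle, matrix, timing and housekeeping genes, 971 intronic regions lay in 385 genes, and 1 passed the threshold, 0.103% against 0.289% of all intronic regions, while 59 (6.08%) were among the 3000 highest, against 6.24%. That one was the myrf-1 region in the list of molting and timing genes. In the same list the period homolog lin-42, a heterochronic gene, had a signal of 26.5 at II:1246862-1247191 just below the threshold, at rank 335 in replicate 2, with no overlapping region in replicate 1. The 75 nuclear hormone receptor genes with intronic regions had 130, with a median signal of 7.74 and 0 past the threshold, and the highest were in nhr-46 (25.3) and nhr-85 (18.5).

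The other lists had 0 past the threshold. Adhesion, guidance and matrix genes had 144 intronic regions, led by unc-52 (24.5 and 17.2), the perlecan gene of muscle attachment. Ion channel genes had 192, led by the glutamate-gated chloride channel gene avr-15 (20.1) and the potassium channel gene exp-2 (18.8), a region that also lies inside the giant muscle gene ttn-1. Signal transduction genes had 154, led by unc-43 (19.5), which encodes CaM kinase II, and pde-3 (17.3). Basic helix-loop-helix genes had 28, with the highest median of the lists of more than 1 region, 10.2, led by hlh-11 (18.6) and hlh-30 (15.8), the TFEB homolog of autophagy. Homeobox genes had 54, led by cog-1 (17.2) and pax-3 (15.1), and transmitter and peptide receptor genes 75, led by pdfr-1 (16.3) and gbb-2 (11.4). Muscle structure genes had 59, chaperone genes 37, led by hsp-17 (17.3) and cct-5 (15.04), and RNA binding and splicing genes 23, led by unc-75 (12.3) and rbm-28 (11.8). After ttn-1, the highest muscle region was in ketn-1 (12.7), and ribosomal protein genes had a single intronic region, in rpl-18 (12.3).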

How the data were processed

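The signal values are scores of the peak caller in the deposited narrowPeak lists, with no scale stated, and the authors gave a −log10 q-value beside each, used here only as a check. Per the text files, the relaxed lists came from alignments on ce11 and a control file. The sources used here name neither the aligner nor the caller, and the depth of each library cannot be read from these lists. The thresholded list is the 415 highest pooled regions, called on pooled replicates.

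Summits were placed with Python 3.11.15, numpy 2.4.6, pandas 2.3.3 and scipy 1.17.1 on the Ensembl release 115 annotation of WBcel235, using gene 5′ ends. Replicates were matched by nearest summit within 100 bp. Ranks count nuclear regions, because scores differ in scale between lists. Introns were numbered on the transcript with the longest coding sequence. Regions were described by shares with exact 95% intervals, with no test. The position rule and the matching were checked on positions with known answers.

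Named genes were the hosts of all thresholded intronic regions, the 5 hosts with most regions, and the 2 highest regions of each gene list. The regions, lists and patterns were chosen with earlier results of these data known. Alternatives changed distances, windows, N, matching, transcript choice and replicates. The ce10 lists were not used, since the annotation is of ce11.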

Additional observations from a re-analysis of the deposited data

How the results depend on the processing

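The 0.289% of intronic regions past the threshold was 0.131% among the 207 highest pooled regions, against 0.69% of all pooled regions, and 0.827% among the 830 highest, against 2.77%. With 1 replicate left out, the share was taken among the 415 highest of the other's own list. It was 0.754% with replicate 1 alone, against 1.79% of all its nuclear regions, and 0.298% with replicate 2 alone, against 1.38%. Distances of 250 and 1000 bp, region midpoints, merged entries, whole regions inside introns, summits in no other gene and transcript 5′ ends (added after the data were seen) gave 0.277 to 0.422%. With summits matched within 50 bp, 22.7% of the thresholded regions, in place of 40.9%, were among the 415 highest of both replicates. Spearman's rho between the replicates was 0.153 with the highest overlapping region, 0.328 over thresholded regions (17) and 0.0498 outside the 2000 highest. In genes with 3 or more introns, 41.6% of intronic regions lay in the longest intron and 16.2% in the first, and the transcript of longest span gave 18.8% in the first. CANNTG was in 31.8% of thresholded regions in windows of 100 bp. Between windows of 100 and 400 bp, AGGTCA ran from 0 to 4.55%, AAGTCA and TGTTTGC from 4.55 to 13.6%, TGATAA from 4.55 to 9.09% and GGGCGG from 9.09 to 31.8%. In all, 42 of 52 alternatives stayed within the spread of the value they were set against, and GAGAGA ran from 54.5 to 81.8%. The cause of the differences was not tested. No paired analysis was possible because there is 1 group. With 22 thresholded regions, every share over them has a wide interval.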
